A study of Sus scrofa with 3 samples.

Results

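The genes described here carry newly made proteins across the membrane of the endoplasmic reticulum (ER) and onward in transport vesicles. They were taken by symbol: the signal recognition particle (SRP), the SEC genes, the translocon-associated SSR genes, the signal peptidase SPCS genes, the PDIA disulfide isomerases, the coatomer COP genes, the TMED cargo receptors and the KDEL receptors. Of 25322 gene IDs in the count tables, 11804 had a symbol and 51 of those belonged to this set. Among the 51, 47 reached 1 CPM (the count of a gene scaled to a common library total) in at least 1 library, and these are called expressed below. SEC14L genes entered by their name alone, since they encode lipid-binding proteins and no part of the translocation or vesicle coat machinery.

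Each library was made from the liver of a male pig at postnatal day 90. The 3 libraries came from an Enshi black pig (a Chinese local breed), a Large White pig (a European commercial breed) and a Chinese wild boar, called wild boar below. The labels name no treatment, and no allele other than the breed. They name 3 pigs and mention no pooling, so breed, animal and library cannot be told apart, and no difference below has a replicate check. The comparisons therefore set these libraries side by side, and no test across animals was possible.

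A secreted protein is recognised at its signal peptide by SRP while it is still being made, and the ribosome is brought to the SEC61 channel. Signal peptidase removes the signal, PDIA enzymes form disulfide bonds, COPII coats carry the folded protein toward the Golgi, and COPI coats return ER residents with the help of KDEL receptors. Hepatocytes use this route for albumin, clotting factors, transferrin and apolipoproteins.

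Values given in threes are in the order Enshi black, Large White, wild boar. Library totals were 20654571, 19982627 and 20215871 counts, and the 47 expressed genes took 122271, 97024 and 104357 of those. This was 0.592% of all gene counts in the Enshi black library (95% exact binomial interval 0.589% to 0.595%), 0.486% in Large White (0.482% to 0.489%) and 0.516% in wild boar (0.513% to 0.519%). The Enshi black library gave the largest share and the Large White library the smallest. A few abundant genes weigh heavily in this share: PDIA3 alone had 19399, 12722 and 11748 counts. In bulk tissue, fewer cells of a type and less RNA per cell cannot be told apart. Levels below are CPM scaled with TMM factors, which compare a gene between libraries. They are not divided by transcript length and so do not rank genes against each other. Each fold is a ratio of scaled counts, and the range after it gives the 95% limits of an exact binomial interval, for counting error alone.

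Across the machinery most differences were modest. The highest library was a median of 1.49 times the lowest over the 47 expressed genes, and 37 of 47 (78.7%) stayed under 2-fold. Over the 13022 expressed gene IDs with a count in every library the median was 1.68 and 66.0% stayed under 2-fold. This background was not matched for abundance, and 44 of the 47 genes also passed a filter of 10 CPM. More of the 47 genes had their highest level in Enshi black (25) than in wild boar (15) or Large White (7). Their lowest level was in Large White for 29, in Enshi black for 10 and in wild boar for 8. Over all 13228 expressed gene IDs the highest level was in Enshi black for 37.4%, in wild boar for 29.5% and in Large White for 33.1%, and the lowest was in Large White for 33.9%. Scaled to total counts, 31 of the 47 (66.0%) were highest in Enshi black, beside 43.1% of all expressed IDs.

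**Figure D1:**
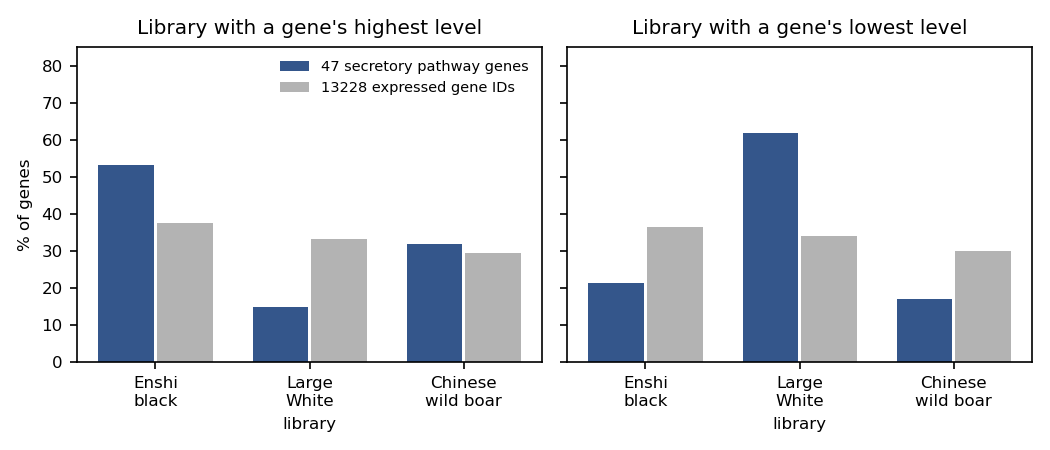
Share (%) of genes whose highest (left) or lowest (right) level fell in each library, for the 47 expressed secretory pathway genes and for all 13228 expressed gene IDs. The secretory genes had their lowest level in Large White for 61.7%, against 33.9% of all expressed IDs.

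The median log2 fold of the 47 genes was 0.30 for Enshi black against Large White, with 35 genes above 0, where all expressed IDs had a median of 0.01 with 50.6% above 0. For wild boar against Large White the median was 0.22 with 34 genes above 0, and 50.1% of all expressed IDs were above 0. For Enshi black against wild boar the median was 0.08 with 27 genes above 0, beside 50.5% of all IDs. The 3 comparisons share libraries, so they are not independent of each other. Genes of 1 pathway can also vary together, and these counts are descriptions.

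Large differences were few, and those past a 2-fold bound were lower in Enshi black. A gene was counted as past the 2-fold bound when even the nearer end of its interval lay 2-fold or more from 1. For Enshi black against Large White, 0 of the 47 passed higher and 3 passed lower (COPE, SEC31B and SEC61A2, 6.38%), beside 4.69% higher and 8.39% lower over all expressed IDs. For wild boar against Large White none passed in either direction, beside 2.96% higher and 3.74% lower. In Enshi black against wild boar 0 passed higher and 3 lower (COPE, COPZ2 and SEC61A2), beside 4.03% higher and 7.10% lower. The members' shares of lower genes lay near the background in both comparisons with Enshi black, and their shares of higher genes lay below it.

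A lower bound of 1.5-fold showed the many moderate differences. In all, 10 of 47 genes (21.3%) passed higher for Enshi black against Large White, beside 11.6% of all expressed IDs: KDELR3, PDIA5, SEC11A, SEC22A, SEC24A, SEC61A1, SPCS1, SSR2, SSR3 and SSR4. The 3 lower genes were those named above, beside 14.9% of all IDs. For wild boar against Large White KDELR3 and SSR4 passed higher (4.26%, beside 7.40%) and SEC14L1 passed lower (2.13%, beside 8.63%). For Enshi black against wild boar PDIA5, SEC11A and SEC24A passed higher (6.38%, beside 9.85%), and COPE, COPZ2, SEC31B and SEC61A2 passed lower (8.51%, beside 12.6%). Of these counts, that of higher genes in Enshi black against Large White lay above its background and the others lay below.

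**Figure D2:**
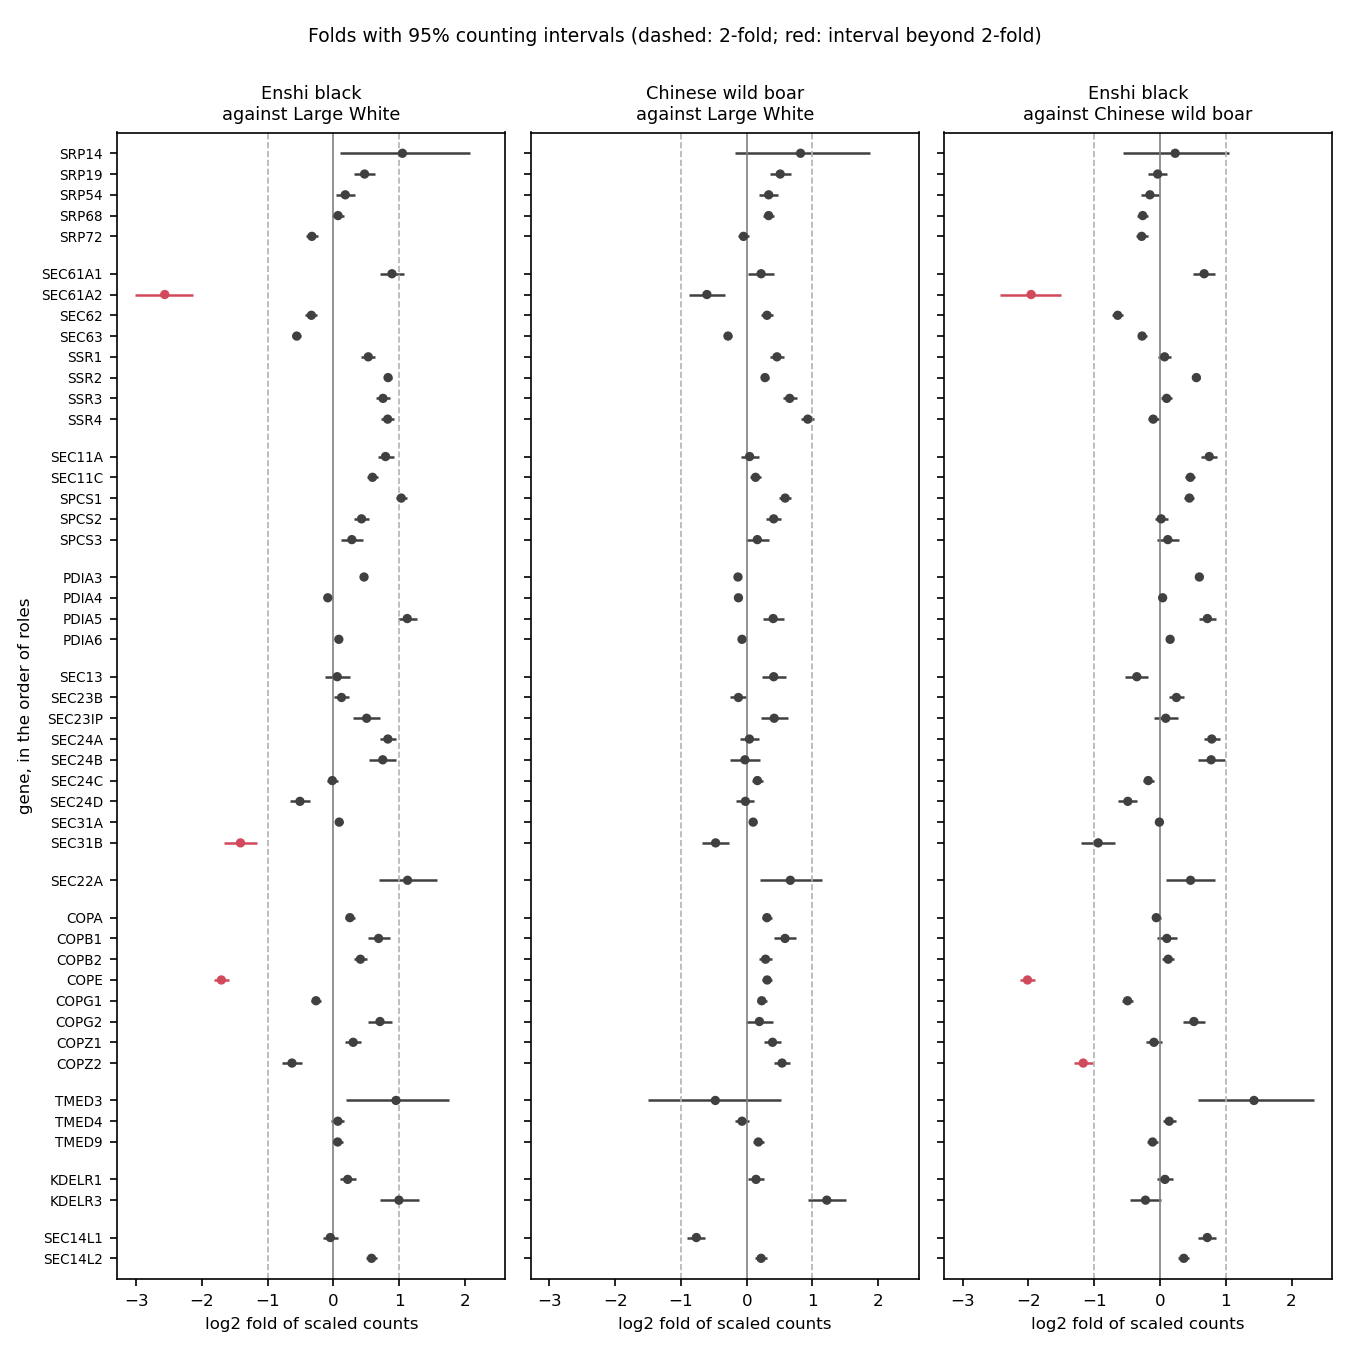
Log2 fold of scaled counts for the 47 expressed genes in the 3 comparisons, with 95% counting intervals as horizontal lines, dashed lines at 2-fold and genes past the 2-fold bound in red. COPE and SEC61A2 lie far to the left wherever Enshi black is compared, while most genes sit right of 0 against Large White.

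SRP is the first step, and 4 of its 5 expressed genes stayed within 1.42-fold over the 3 libraries. SRP68, which binds the SRP RNA together with SRP72, had 113 CPM in the Enshi black library, 108 in Large White and 135 in wild boar. SRP72 was at 89.0, 112 and 108 CPM, the 1 SRP gene with its lowest level in Enshi black, 1.26-fold (1.18 to 1.34) below Large White. SRP19, which helps assemble the particle, was at 39.3, 28.3 and 40.3 CPM, 1.42-fold (1.28 to 1.59) higher in wild boar than Large White. SRP54, the subunit that binds the signal peptide, was close by at 41.7, 36.8 and 46.4 CPM. SRP14 had 32, 14 and 25 counts, close to the expression limit, and its locus overlaps EIF2AK4. SRP14 is known as a gene of most cells, so it is uncertain whether so few counts measure its expression, which was not tested. Of the 4 other genes, 3 were lowest in Large White.

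The 8 translocon genes fell into an accessory group that was lowest in Large White and channel genes that went separate ways. SSR1 to SSR4 encode the 4 subunits of the translocon-associated protein complex, which helps some signal peptides open the channel. SSR2 had 289 CPM in the Enshi black library, 162 in Large White and 197 in wild boar, and SSR4 had 114, 64.5 and 123 CPM. SSR3 had 104, 61.5 and 96.7 CPM, and SSR1 had 87.5, 60.6 and 83.3 CPM. The 4 subunits were thus 1.44 to 1.78 times higher in Enshi black than Large White, with SSR4 at 1.77 (1.65 to 1.90). SSR4 was also 1.90-fold (1.78 to 2.04) higher in wild boar than Large White. SSR2, SSR3 and SSR4 overlap other annotated genes, SSR4 with IDH3G, so some of their reads may have been set aside as ambiguous.

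SEC61A1 and SEC61A2 encode alternative alpha subunits, the pore of the channel. SEC61A2 had 2.46 CPM in the Enshi black library (53 counts), 14.5 in Large White (284 counts) and 9.55 in wild boar (189 counts). Its level in Enshi black was 5.92-fold (4.40 to 8.09) below Large White and 3.89-fold (2.85 to 5.38) below wild boar, the widest spread among the 47 genes. SEC61A1 ran the opposite way, at 36.7, 19.8 and 23.05 CPM, 1.85-fold (1.64 to 2.098) higher in Enshi black than Large White. The sum of both was 39.2, 34.3 and 32.6 CPM, so the libraries differed by 1.201-fold in the sum. Their coding sequences are closely related, and how reads matching both copies were counted is not given in the sources used here, so the split between them is uncertain. SEC62 and SEC63, partners of the channel for other substrates, were lower in Enshi black: SEC62 had 81.8, 103 and 128 CPM, and SEC63 had 152, 223 and 183 CPM.

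The signal peptidase genes shared 1 order. All 5 measured subunits were highest in Enshi black and lowest in Large White, under TMM, DESeq2 and total-count scaling alike. SPCS1, a small accessory subunit, had 163 CPM in the Enshi black library, 79.9 in Large White and 120 in wild boar, and was 2.04-fold (1.93 to 2.17) higher in Enshi black than Large White. The catalytic subunit SEC11A had 75.2, 43.4 and 44.8 CPM, 1.73-fold (1.59 to 1.88) higher in Enshi black than Large White. Its alternative, SEC11C, had 156, 103 and 113 CPM. SEC11A and SEC11C in Large White and wild boar lay within 1.10-fold of each other, so for the catalytic pair the Enshi black library stood above both. For SPCS2, at 78.9, 58.6 and 77.9 CPM under TMM, Enshi black and wild boar did not differ beyond counting error (1.01-fold, 0.944 to 1.08). SPCS3 had 30.1, 24.8 and 27.7 CPM. The median log2 fold of the 5 genes was 0.59 for Enshi black against Large White, 0.16 for wild boar against Large White and 0.45 for Enshi black against wild boar.

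Among the 4 expressed disulfide isomerase genes, PDIA5 and PDIA3 were highest in Enshi black while PDIA4 and PDIA6 differed little. PDIA3, which works on glycoproteins with calnexin and calreticulin, had 899 CPM in the Enshi black library, 651 in Large White and 594 in wild boar, 1.38-fold (1.35 to 1.41) higher in Enshi black than Large White. PDIA4 had 762, 809 and 741 CPM, and PDIA6 had 613, 579 and 551 CPM, so that both stayed within 1.11-fold over the 3 libraries. PDIA5 had 62.0, 28.5 and 37.6 CPM, and was 2.18-fold (1.97 to 2.41) higher in Enshi black than Large White and 1.65-fold (1.51 to 1.80) higher than wild boar. The nearer end of its interval against Large White lay just short of 2-fold, and PDIA5 and SPCS1 both passed that bound under total counts. PDIA2, which is known from the pancreas, had 3, 0 and 2 counts and was not expressed by the limit used.

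The 9 COPII genes had a median near 0 in each comparison, made of genes that went opposite ways. SEC31A, of the outer coat, had 268 CPM in the Enshi black library, 252 in Large White and 269.9 in wild boar, a spread of 1.07-fold. Its relative SEC31B had 8.66, 23.1 and 16.6 CPM, 2.66-fold (2.24 to 3.18) lower in Enshi black than Large White and 1.92-fold (1.60 to 2.31) lower than wild boar. SEC31B overlaps WNT8B.

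SEC24 proteins choose the cargo of the COPII vesicle. SEC24A had 75.9, 42.7 and 44.0 CPM, and SEC24B, its closer relative, had 26.6, 15.8 and 15.5 CPM. Both were higher in Enshi black than Large White, SEC24A by 1.78-fold (1.63 to 1.93) and SEC24B by 1.68-fold (1.46 to 1.94), and the Large White and wild boar values of each gene did not differ beyond counting error (1.03, 0.935 to 1.13, for SEC24A and 0.981, 0.835 to 1.15, for SEC24B). The other pair did not share this order: SEC24C had 108, 109 and 122 CPM, and SEC24D had 31.6, 45.0 and 44.4 CPM, lowest in Enshi black. Of the remaining COPII genes, SEC13, SEC23B and SEC23IP each stayed within 1.42-fold. SEC24A overlaps SAR1B, the small GTPase that starts the coat.

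SEC22 genes carry the name of a SNARE of ER and Golgi traffic, and whether SEC22A acts as one was not tested. SEC22A had 7.04, 3.22 and 5.10 CPM from 152, 63 and 101 counts, 2.18-fold (1.62 to 2.98) higher in Enshi black than Large White. SEC22B had 17, 14 and 14 counts, under the limit used. It is known as a widely expressed gene, so the few counts assigned to it do not show that liver lacked it, and whether the annotation used for counting holds its transcript was not tested.

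COPI coatomer genes split between COPE and COPZ2, past the 2-fold bound, and 6 others that were not. COPE, the epsilon subunit that stabilises alpha-COP, had 38.1 CPM in the Enshi black library (823 counts), 124 in Large White (2428 counts) and 154 in wild boar (3050 counts). It was 3.26-fold (3.01 to 3.53) lower in Enshi black than Large White and 4.04-fold (3.74 to 4.37) lower than wild boar. COPA, its direct partner in the coat, did not share this, at 166, 139.7 and 172.9 CPM. COPE overlaps no other gene in the RefSeq annotation of Sscrofa11.1.

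COPZ2, one of 2 zeta subunits, had 28.0, 43.4 and 63.0 CPM, 2.25-fold (2.04 to 2.48) lower in Enshi black than wild boar and 1.55-fold (1.39 to 1.72) lower than Large White. It no longer passed against wild boar under total counts. The gene overlaps the microRNA gene MIR152. COPZ1, the other zeta subunit, had 57.4, 46.6 and 61.2 CPM. Among the gamma subunits, COPG1 had 105, 126 and 148 CPM and COPG2 had 32.4, 19.9 and 22.7 CPM, so COPG1 was lowest and COPG2 highest in Enshi black. The beta subunit COPB1 had 37.5, 23.3 and 34.9 CPM, and COPB2 had 94.5, 71.1 and 86.7 CPM. All 8 COPI genes had a higher value in wild boar than Large White (median log2 fold 0.31), from 1.14-fold for COPG2 to 1.498-fold for COPB1, and the interval for COPG2 (0.995 to 1.31) reached 1.

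TMED proteins are cargo receptors that cycle in both coats. TMED9 had 123 CPM in the Enshi black library, 118 in Large White and 133 in wild boar, and TMED4 had 84.0, 80.1 and 76.2 CPM, both within 1.13-fold. TMED3 was near the limit, at 47, 22 and 16 counts, 2.69-fold higher in Enshi black than wild boar with a wide interval (1.4996 to 5.09). TMED6, with 16, 9 and 12 counts, was not expressed by the limit used.

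KDEL receptors bring escaped ER proteins back. KDELR1 had 57.5, 49.4 and 54.5 CPM, within 1.16-fold. KDELR3 had 14.1 CPM in the Enshi black library, 7.06 in Large White and 16.4 in wild boar. It was 1.99-fold (1.63 to 2.46) higher in Enshi black than Large White and 2.33-fold (1.90 to 2.86) higher in wild boar than Large White. The Enshi black and wild boar values did not differ beyond counting error (1.17-fold higher in wild boar, 0.994 to 1.37).

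Of the SEC14L genes, SEC14L1 had 58.4, 60.3 and 35.5 CPM, 1.70-fold (1.55 to 1.87) lower in wild boar than Large White. SEC14L2, a vitamin E binding protein of the liver, had 139, 92.8 and 108 CPM, 1.49-fold (1.41 to 1.59) higher in Enshi black than Large White. SEC14L5 had 0 counts in the 3 libraries, which allows up to 3 counts or 0.139, 0.154 and 0.152 CPM. Without the SEC14L genes, the 45 others had a median log2 fold of 0.30 in that comparison.

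**Figure D3:**
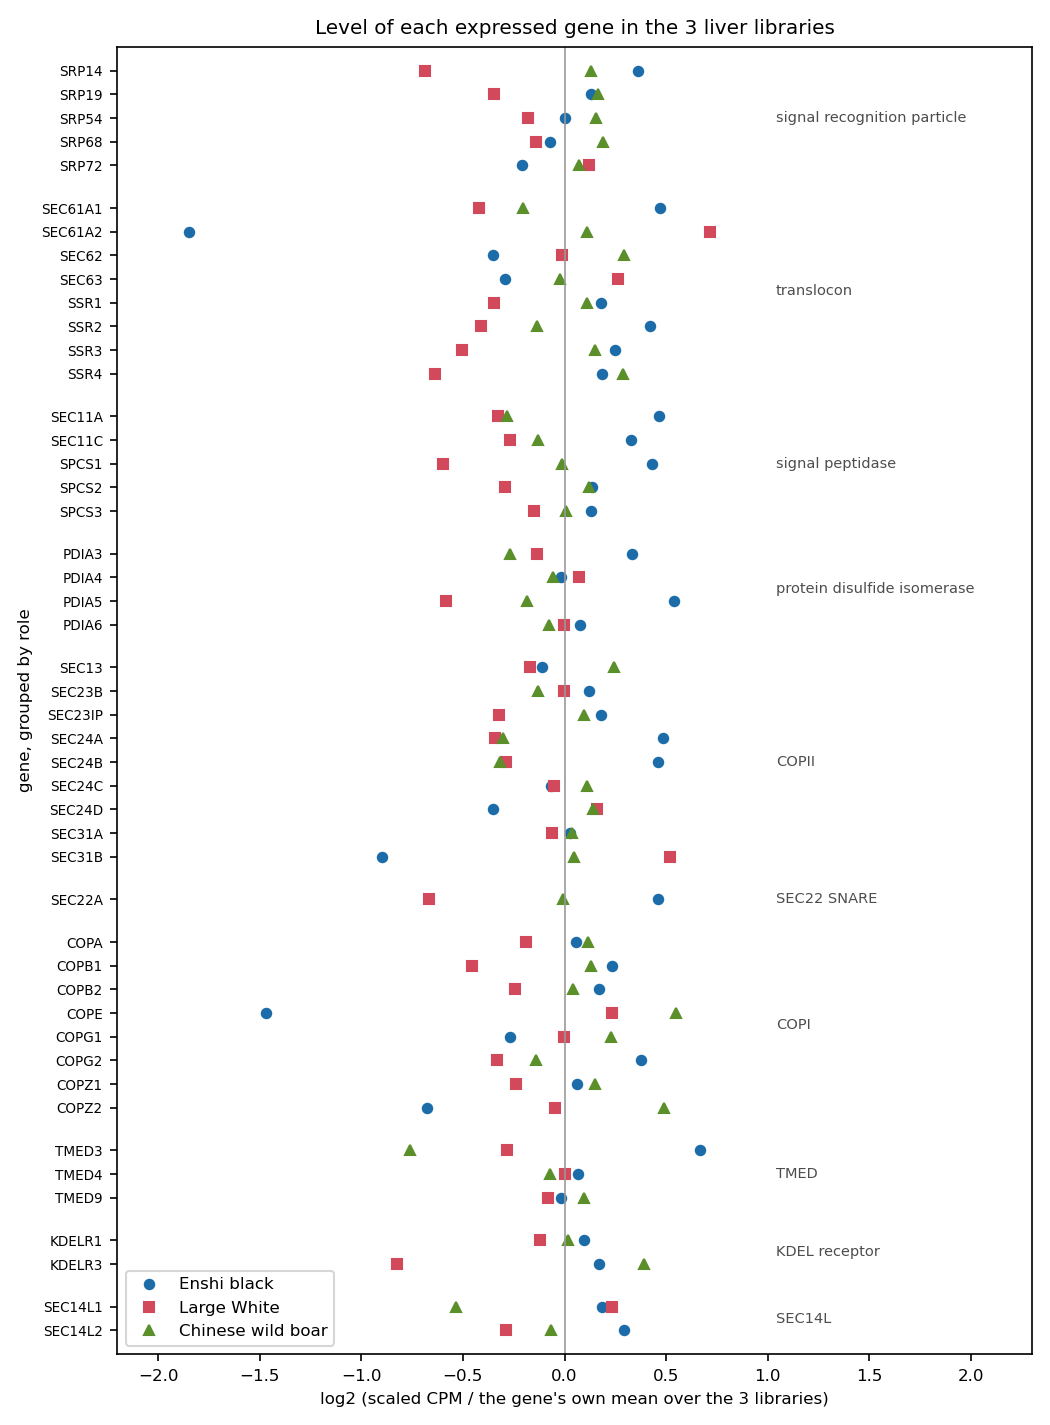
Log2 of the scaled CPM of each expressed gene relative to its own mean over the 3 libraries, grouped by role. The signal peptidase and SSR genes have Large White (squares) at the left, and COPE, SEC61A2, SEC31B and COPZ2 have Enshi black (circles) at the left.

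Several of the largest differences were in 1 gene of a related pair. The ratio of 2 genes within a library does not depend on library scaling. It was taken for 8 pairs chosen by name after their values were seen, so the ratios are descriptions. SEC61A1 to SEC61A2 was 14.9, 1.36 and 2.41, so the odds ratio of Enshi black to Large White was 10.9 (7.92 to 15.3). SEC31A to SEC31B was 30.9, 10.9 and 16.2, with an odds ratio of 2.83 (2.37 to 3.39). COPZ1 to COPZ2 was 2.05, 1.07 and 0.972, with an odds ratio of 1.91 (1.66 to 2.19). In these 3 pairs the ratio was highest in Enshi black, where the second gene was at its lowest.

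COPG1 to COPG2 was 3.24, 6.36 and 6.52, an odds ratio of Enshi black to Large White of 0.509 (0.443 to 0.585). KDELR1 to KDELR3 was 4.08, 7.0 and 3.32, so here Large White had the highest ratio. SEC24A to SEC24B stayed at 2.85, 2.70 and 2.83, and its odds ratio of Enshi black to Large White was 1.06 (0.895 to 1.24). SEC24A and SEC24B summed to 102 CPM in the Enshi black library, 58.5 in Large White and 59.5 in wild boar, so this pair differed in its sum and hardly in its ratio. SEC31A and SEC31B differed in their ratio, with sums of 277, 275 and 287 CPM. Most of each sum was SEC31A, at 268, 252 and 269.9 CPM, so the sum says little about SEC31B.

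**Figure D4:**
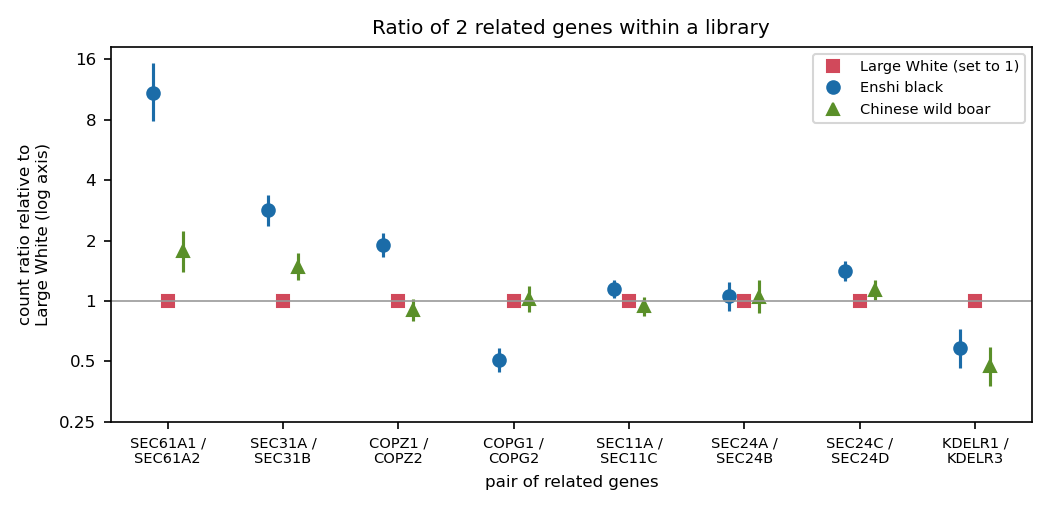
Ratio of the counts of 2 related genes in each library, relative to the Large White ratio (log axis), with 95% exact intervals for Enshi black and wild boar. SEC61A1 to SEC61A2 is 10.9 times the Large White ratio in Enshi black, and SEC24A to SEC24B lies at 1 in both libraries within counting error.

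The other genes of the route were taken in 6 lists: targeting and translocon partners, ER chaperones, COPII regulators, COPI partners, tethers and SNAREs, and unfolded protein response regulators. Their median log2 folds for Enshi black against Large White lay between -0.12 and 0.11, beside 0.30 for the 47 genes. For wild boar against Large White, in that order, they were 0.09, 0.01, 0.29, 0.33, 0.21 and 0.14, beside 0.22. For Enshi black against wild boar they were -0.18, -0.09, -0.13, -0.32, -0.30 and -0.11 under TMM, beside 0.08. No gene of these lists passed the 2-fold bound for wild boar against Large White, beside 2.96% higher and 3.74% lower of all expressed IDs. For Enshi black these shares were 4.69% higher and 8.39% lower against Large White, and 4.03% higher and 7.10% lower against wild boar. Of 17 targeting receptor and translocon partner genes found in the tables (29 listed), 1 passed in the other comparisons: SRPRA, the receptor that docks SRP on the ER. It had 142 CPM in the Enshi black library, 334 in Large White and 344 in wild boar, 2.34-fold (2.25 to 2.45) lower in Enshi black than Large White and 2.42-fold (2.32 to 2.53) lower than wild boar.

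Of 20 ER chaperone and folding genes (29 listed), PRDX4, an ER peroxidase that takes part in disulfide formation, passed higher in Enshi black against Large White and none passed lower. It had 169, 59.5 and 127 CPM, a fold of 2.84 (2.65 to 3.03). The ER chaperones HSPA5 and HSP90B1 had their lowest values in Enshi black: HSPA5 had 919, 1126 and 1105 CPM, and HSP90B1 had 1139.9, 1499.8 and 1321 CPM.

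None of 17 genes of COPII regulators, exit sites and cargo receptors (24 listed) passed, and none of 13 COPI partner genes (20 listed). MIA3, which loads large cargo, had 426, 364 and 321 CPM, and LMAN2, a lectin receptor, had 265, 391 and 327 CPM. GBF1, the exchange factor that recruits COPI, had 89.6, 169 and 128 CPM, 1.89-fold (1.79 to 1.999) lower in Enshi black than Large White. ARFGAP3 had 116, 92.0 and 131 CPM.

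Of 20 tether and SNARE genes (25 listed), COG7 of the Golgi tethering complex passed lower in Enshi black against both other libraries, at 10.8, 28.4 and 28.1 CPM, by 2.63-fold (2.25 to 3.07) and 2.60-fold (2.23 to 3.05). Of 13 unfolded protein response genes (25 listed), the phosphatase subunit PPP1R15A had 14.9, 37.2 and 16.4 CPM and passed lower in Enshi black against Large White (2.50-fold, 2.19 to 2.86). SEL1L, a part of the ER degradation complex, had 108, 65.4 and 50.1 CPM and passed higher in Enshi black against wild boar (2.16-fold, 2.001 to 2.32). XBP1, the transcription factor known for inducing secretory pathway genes, had 34.8, 37.8 and 41.5 CPM.

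Cell type markers differed between the libraries too. Their counts past the 2-fold bound stand beside the shares of all expressed IDs. Those were 4.69% higher and 8.39% lower for Enshi black against Large White, and 4.03% higher and 7.10% lower against wild boar. Hepatocyte markers summed to 113067 CPM in the Enshi black library, 67534 in Large White and 98427 in wild boar over 11 of 12 genes, with ALB at 66508, 25310 and 53648 CPM carrying the difference. The other hepatocyte markers were split. FGB, at 605, 2740.3 and 2346 CPM, TTR, at 2543, 4107 and 3497 CPM, CPS1 and ASGR2 were lower in Enshi black than Large White. AHSG, at 13744, 9099 and 15141 CPM, SERPINC1, at 3202, 2445 and 2816 CPM, TF and APOB were higher there. ASGR1 had 551, 549 and 758 CPM. Of 10 expressed markers, ALB and APOB passed higher and FGB lower in Enshi black against Large White, with a median log2 fold of 0.09. APOA1, known as an abundant liver transcript, was at 2, 0 and 2 counts, so its row is uncertain as a measure of expression, which was not tested. Stellate cell and fibroblast markers summed to 1255, 403 and 644 CPM over 11 of 13 genes, and LUM was at 0 in Large White. Most of each sum was COL3A1, at 837, 232 and 383 CPM. Of 10 expressed stellate markers, 7 passed higher in Enshi black against Large White, beside 4.69% of all expressed IDs, and none lower. DES, at 14.2, 21.0 and 37.8 CPM, and PDGFRB, at 15.9, 18.0 and 18.6 CPM, had their lowest values in Enshi black. Against wild boar 3 of the 10 passed higher in Enshi black and 1, DES, passed lower. Plasma and B cells also hold much secretory machinery. Their markers summed to 56.8, 62.4 and 60.1 CPM over 6 of 12 genes, most of it XBP1, which is not specific to them, and the other markers differed. CD79B had 5.33, 0.972 and 0.859 CPM and MS4A1 had 2.78, 0.614 and 0.303 CPM, highest in Enshi black, while POU2AF1 had 1.85, 8.80 and 13.5 CPM. MZB1, at 8.11, 9.31 and 2.12 CPM, and PRDM1, at 3.94, 4.91 and 1.77 CPM, were highest in Large White and lowest in wild boar. Of the 6, 2 passed higher and 1 lower in Enshi black against Large White, and 3 higher and 1 lower against wild boar (median log2 fold 1.4997).

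Kupffer cell and macrophage markers summed to 1525, 1971 and 1756 CPM (7 of 12), most of it CD14 and C1QA. Of these 7, 3 passed lower and none higher in Enshi black against Large White (median log2 fold -1.08), beside 8.39% lower and 4.69% higher of all expressed IDs. For the 3, CSF1R had 15.6, 111 and 55.7 CPM, MARCO had 21.4, 85.1 and 28.9, and LYZ had 1.16, 7.73 and 3.29. Endothelial markers summed to 595, 865 and 483 CPM (6 of 10). STAB1, at 186, 499 and 168 CPM, carried the lower sum in Enshi black than Large White and passed lower there. None passed higher in that comparison, and the median log2 fold of the 6 was 0.23. PECAM1, LYVE1, KDR and ERG were higher in Enshi black than Large White, and EGFL7 was lower. Cholangiocyte markers summed to 33.6, 33.4 and 29.01 CPM (5 of 8), and none passed in that comparison. Pancreas acinar markers were near 0, at 0.463, 2.92 and 1.72 CPM (7 of 11), with PNLIP at 0 in the 3 libraries and CPA1 at 0 in Enshi black. The part of these cell types in the differences was not tested.

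Gene length, taken as the RefSeq span of the gene and not of its transcript, moved with the folds in these libraries. The 8317 expressed genes with a RefSeq span were cut into 3 classes of about equal size. For Enshi black against Large White their median log2 fold was -0.12 in the shortest class, 0.06 in the middle class and 0.12 in the longest class. The secretory genes of these classes had medians of 0.53 (14 genes), 0.18 (25) and 0.73 (8), each above that of all genes in its class. For Enshi black against wild boar the medians of all genes were -0.16, 0.01 and 0.20, and those of the secretory genes 0.10, 0.04 and 0.49. Wild boar against Large White ran the other way, at 0.05, 0.02 and -0.08 for all genes and 0.29, 0.23 and 0.07 for the secretory genes. The part of length in single genes was not tested. Of the 47 expressed genes, 17 overlap another RefSeq gene.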

How the data were processed

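Liver total RNA of 3 male pigs was sequenced as 125 bp read pairs, 1 library per breed, per the labels' protocols. The authors deposited whole-number read counts per gene, not normalized. Listed in the submitters' processing notes are the build Sscrofa10.2 and the tools HTSeq 0.6.1, TopHat2 2.1.0 and edgeR 3.16.3. For the strand setting, the annotation release and reads with several alignments, the method is not given in the sources used here. Each table had 5 rows without a gene name, left out of totals; reads with no feature were 19.0%, 22.0% and 18.9% in Enshi black, Large White and Chinese wild boar, and ambiguous reads 1.89%, 2.18% and 2.49%.

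Symbols were matched by gene ID. The set took symbols starting with SEC or SRP and a digit, COPA, COPB, COPE, COPG, COPZ, PDIA, TMED, SSR and a digit, SPCS or KDELR. The members and lists were chosen with earlier results of these data known. Of the symbol table's 65 IDs that match, 14 are not analysed here, SEC61B, SEC61G, SRP9, TMED10 and KDELR2 among them. Genes with at least 1 CPM in a library were kept (13228). TMM factors (edgeR 4.0.16, run in R 4.3.3) came to 1.04, 0.978 and 0.979. A single count equals 0.0463, 0.0512 and 0.0505 CPM. Median log2 folds used a prior count of 2. Intervals of folds and shares are 95% Clopper-Pearson. Odds ratios of gene pairs and their 95% intervals are exact conditional estimates. All were computed with Python 3.11.15 and scipy 1.17.1 and cover counting error, since no molecular identifiers are described. Tested on simulated data with counting noise alone (13228 genes per comparison), the 2-fold bound recovered 93, 97 and 94 of 100 genes changed 4-fold for Enshi black against Large White, Chinese wild boar against Large White and Enshi black against Chinese wild boar. Named genes are those past the 2-fold bound and, per role, the most abundant gene and up to 3 genes with the largest differences; from each list, those past it or the 2 most abundant. SEC61A1, SEC62, SEC63, SSR1, SSR3, SRP54, SRP14, SPCS2, SPCS3, SEC13, SEC23B, SEC23IP, SEC24C, SEC24D, COPB1, COPB2, COPG1, COPZ1, HSPA5, HSP90B1 and XBP1 were named after their values were seen. Spans and overlaps come from the RefSeq table of Sscrofa11.1, used for lengths and neighbours. Alternatives were total counts, size factors of DESeq2 1.42.0, no filter, 10 CPM, a prior count of 0.5, bounds of 1.5 and 4, and a 99.9% interval. Levels per coding length, protein ends and promoter motifs were not analysed here.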

Additional observations from a re-analysis of the deposited data

How the results depend on the processing

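With 1 library per breed, no replicate could be left out and variation between animals is unknown. No paired analysis was possible because each breed has 1 library. The medians over the secretory genes kept their sign under the other scalings, filters, prior count and the mean, at 0.22 to 0.40 for Enshi black against Large White, 0.21 to 0.23 for wild boar against Large White and 0.02 to 0.17 for Enshi black against wild boar. Under total counts the median of all expressed IDs for Enshi black against Large White was 0.10, and 2 genes passed higher there (PDIA5 and SPCS1) where TMM gave 0. At a bound of 1.5-fold, 10 genes passed higher for Enshi black against Large White, 2 for wild boar against Large White and 3 for Enshi black against wild boar, and 1 passed lower for wild boar against Large White. At a bound of 4-fold, 1 gene passed lower for Enshi black against Large White and 0 for Enshi black against wild boar. The bounds of 1.5-fold and 4-fold change the counts by construction. No share of all expressed IDs was taken at 4-fold, or at 2-fold under total counts. The counts of secretory genes there cannot be set beside a background. Folds of the genes named by rule, without those named after their values were seen, numbered 87. Of these, 87 kept their direction and side of the 2-fold bound under DESeq2 size factors. Under total counts 84 kept their side of the bound and 82 their direction. The 5 of them that crossed 1 were small folds of Enshi black, for PDIA4 and SEC14L1 against Large White and for COPA, SEC31A and SRP19 against wild boar. Over all 47 genes, those above 0 went from 35 under TMM to 38 under total counts for Enshi black against Large White. For Enshi black against wild boar they went from 27 to 31. COPZ2 no longer passed for Enshi black against wild boar under total counts or with the wider interval, which each left 2 lower genes of 3. Low counts limit SRP14, TMED3 and SEC22A. Values per coding length, protein ends and promoter motifs were not run.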
